A study of Mus musculus with 6 samples.

Results

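Chrna4, Hcn3 and Asic5 are 3 of the 55471 mouse genes counted in liver RNA libraries, and each encodes an ion channel subunit whose transcript differed between a long and a short fast. They were chosen for that difference in an earlier look at the same counts, so their changes are described below and not tested. Tests are given for genes that the choice did not use, which are relatives of the channels, their partners and the genes that adjoin them. All livers came from male wild-type C57BL/6J mice, an inbred laboratory strain, with 3 mice fasted for 16 h and 3 mice fasted for 4 h. The labels give neither age nor time of day, and in them only the length of the fast separates the groups. Each library is treated as 1 mouse, as the design text gives 3 mice per group.

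The 3 channels belong to different families. Chrna4 encodes an alpha subunit of the nicotinic acetylcholine receptor, a cation channel that opens when acetylcholine or nicotine binds, and in the brain it pairs mainly with the product of Chrnb2. Hcn3 encodes a hyperpolarization-activated, cyclic nucleotide-gated channel, a family known for the pacemaker current of heart and nerve cells. Asic5 encodes a sodium channel of the acid-sensing and epithelial sodium channel superfamily that bile acids activate, and it has been found in bile duct cells of rat liver.

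Chrna4 (ENSMUSG00000027577) lies on the minus strand of chromosome 2 at 181018380 to 181043546 of the build GRCm38. Hcn3 (ENSMUSG00000028051) lies on the minus strand of chromosome 3 at 89146074 to 89160196, and Asic5 (ENSMUSG00000028008) on the plus strand of the same chromosome at 81982290 to 82021233. RefSeq promoter windows were held for Chrna4 and Asic5. The stretches that follow are the genomic bases before the RefSeq start of each (build GRCm38.p6), ended where an exon of a protein-coding transcript begins, and are shown because their base composition differs. The Chrna4 stretch covers 122 bases at chr2:181039306-181039427 on the minus strand and stops 129 bases before the start, and the Asic5 stretch covers 250 bases at chr3:81996672-81996921 on the plus strand.
Chrna4: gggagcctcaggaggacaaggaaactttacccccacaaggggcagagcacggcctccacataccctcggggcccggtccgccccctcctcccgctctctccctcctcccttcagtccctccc
Asic5: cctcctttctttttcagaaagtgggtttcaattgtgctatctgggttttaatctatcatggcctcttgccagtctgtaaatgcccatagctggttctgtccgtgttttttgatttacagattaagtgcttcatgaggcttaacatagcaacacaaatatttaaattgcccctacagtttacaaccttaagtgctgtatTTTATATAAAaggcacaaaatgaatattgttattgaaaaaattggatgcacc
Capitals mark matches to TATAAA, the core of a TATA box, on either strand. G and C made up 68.0% of the Chrna4 stretch, against a median of 50.8% over the same window of all 32851 promoters in the RefSeq table. They made up 35.6% of the Asic5 stretch, against a median of 52.4%. The Asic5 stretch held TATAAA on the given strand, with its first base 48 bases before the start, and an overlapping match on the other strand, 52 bases before it. TATAAA occurred in 12.4% of all promoters over a window of that length. The Chrna4 stretch held no match to TATAAA, which occurred in 6.1% of all promoters over its shorter window. That window stops 129 bases before the start and leaves out the positions of the Asic5 matches, so the stretches cannot be compared for TATAAA. Searched on both strands, neither stretch held CACGTG (E-box), TGTTTAC (forkhead), AGGTCA (nuclear receptor), AGAACA (glucocorticoid receptor) or TGACG (cyclic AMP response). Over the Asic5 window these occurred in 6.0%, 3.2%, 14.0%, 16.1% and 17.8% of all promoters, and over the Chrna4 window in 2.2%, 1.6%, 7.1%, 8.5% and 6.6%.

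The 16 h libraries held 21825775, 16991034 and 25016855 counts assigned to genes (replicates 1, 2 and 3), and the 4 h libraries 26572532, 15173653 and 19706810. Levels below are CPM, which are read counts divided by library sizes that were scaled with TMM, a correction for differences in composition between libraries. All 10 hepatocyte markers looked at were tested, 5 rose and 1 fell where 18.7% of all tested genes were called, and their summed level was 94530 to 107400 CPM in the 16 h libraries and 94080 to 100900 CPM in the 4 h libraries. Replicate 3 of the 4 h fast stood apart. Its 10 lung epithelium markers summed to 190.4 CPM, with Scgb1a1 the most abundant at 95.05 CPM, against 6.05 to 8.98 CPM in the 16 h libraries and 6.06 and 6.51 CPM in the other 4 h libraries. Its 10 neutrophil markers summed to 15.98 CPM, and no other library exceeded 5.66 CPM. Each channel is therefore also given without that library.

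Chrna4 was barely detected after the 16 h fast. Raw counts were 4, 1 and 2 in replicates 1, 2 and 3 of the 16 h fast, against 452, 163 and 84 in those of the 4 h fast. On the scaled libraries this was 0.178, 0.0603 and 0.0823 CPM after 16 h, against 16.6, 10.5 and 4.39 CPM after 4 h. The groups did not overlap, and the 4 h libraries themselves spread 3.79-fold, with replicate 3, the one that carried lung transcripts, at the low end. Pooled, there were 7 counts of 63833664 after 16 h and 699 of 61452995 after 4 h, a ratio of 0.00964 with a 95% exact counting interval from 0.00386 to 0.01997. That interval covers counting error alone and leaves out the spread between livers, because the reads of each group were pooled. PCR copies of 1 molecule could not be recognised, so even the counting error may be understated. In bulk liver RNA, fewer cells of a type and less RNA per cell cannot be told apart, for Chrna4 or for any gene below.

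The fitted log2 fold change of Chrna4 was -6.51 ± 0.71 (SE, n = 3 livers per group). It was -6.87 without replicate 3 of the 4 h fast. Because the 16 h level rests on 7 counts, the size of the change depends on how low counts are damped, and with a prior count of 2 it was -5.70. The transcript has 4 protein-coding models among 5 annotated ones, and none of its 5022 exon bases is shared with another gene.

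Hcn3 was strongly lower after the 16 h fast, and on more counts. It had 78, 29 and 41 counts in the 16 h libraries, against 1546, 827 and 811 in the 4 h libraries. The scaled values were 3.47, 1.75 and 1.69 CPM after 16 h, against 56.9, 53.3 and 42.4 CPM after 4 h. The lowest 4 h library was thus far above the highest 16 h library, and the relative spread was wider after 16 h (2.30 ± 1.01 CPM, SD) than after 4 h (50.8 ± 7.6 CPM, SD, n = 3 each). The log2 fold change was -4.45 ± 0.25, and -4.55 without replicate 3 of the 4 h fast.

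Asic5 was higher after the 16 h fast and had the tightest replicates. Its counts were 575, 496 and 825 in the 16 h libraries, against 212, 112 and 136 in the 4 h libraries. This came to 25.6, 29.9 and 34.0 CPM after 16 h, against 7.80, 7.22 and 7.10 CPM after 4 h. The groups did not overlap, and the 16 h mean (29.8 ± 4.2 CPM, SD, n = 3) was 4.04 times the 4 h mean (7.37 ± 0.37 CPM, SD, n = 3). The log2 fold change was 2.01 ± 0.14, and 1.995 without replicate 3 of the 4 h fast. None of the 2307 exon bases of Asic5 is shared with another gene.

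The groups were thus fully apart for all 3 channels, as they were for 39.4% of the 13812 genes that passed the filter on low counts (19.7% higher after 16 h and 19.7% lower). All 3 channels passed that filter, and since they were chosen on this contrast nothing is read from the share.

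**Figure D1:**
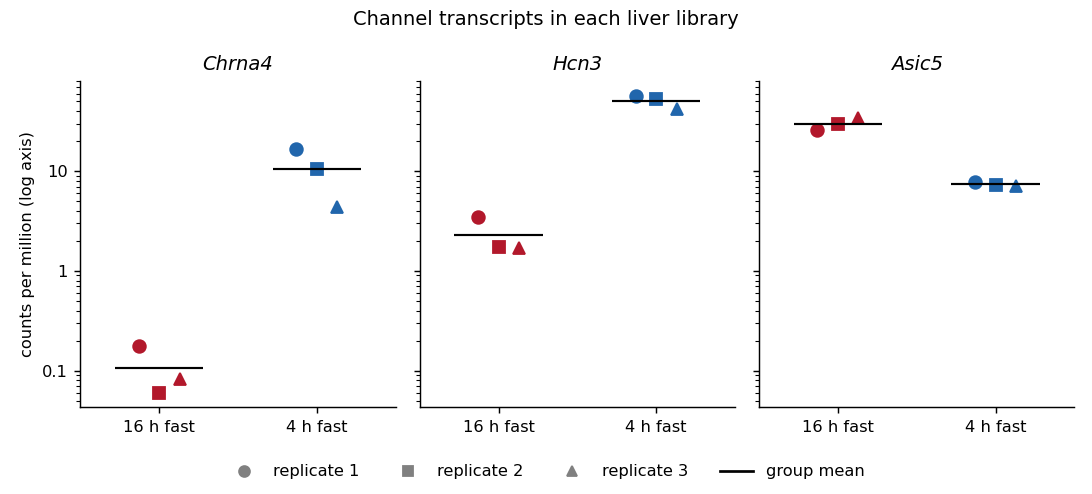
CPM (log axis) of Chrna4, Hcn3 and Asic5 in the 3 libraries of the 16 h fast and the 3 of the 4 h fast, with 1 point per library and a line at the group mean. Chrna4 sits between 0.0603 and 0.178 CPM after 16 h and between 4.39 and 16.6 CPM after 4 h, while Asic5 is the one of the 3 that is higher after 16 h.

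Set against the length of exon not shared with another gene, the channels changed order between the groups. After 16 h Asic5 stood at 11.1 to 14.7 CPM per kb, Hcn3 at 0.490 to 1.01 CPM per kb and Chrna4 at 0.0120 to 0.0354 CPM per kb, with no overlap between neighbours in that order. After 4 h Hcn3 led with 12.3 to 16.5 CPM per kb, Asic5 followed with 3.08 to 3.38 CPM per kb, and Chrna4 had 0.874 to 3.31 CPM per kb. At 4 h Asic5 and Chrna4 overlapped, so their order there is within the spread between livers.

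The adjoining genes matter to how these counts can be read, since reads where genes share exons, or reads that run past the end of a gene, can be hard to assign. Hcn3 and Pklr, the gene of liver pyruvate kinase, lie tail to tail on opposite strands and share 711 exon bases, which is 17.1% of those of Hcn3 and 22.0% of those of Pklr. The strand setting of the counting is not given in the sources used here, so reads in that stretch may have gone to neither gene, and the values of Hcn3 and Pklr are uncertain to that extent. Chrna4 and the collagen gene Col20a1 also lie tail to tail, 16 bases apart with no shared exon base. Asic5 lies head to head with Tdo2, the gene of the tryptophan-degrading dioxygenase of liver, 6087 bases from it, and 10772 bases from Gucy1b1, a subunit of soluble guanylyl cyclase. The 6087 bases run to the most upstream annotated Asic5 start, at 81982290, which belongs to a transcript not annotated as protein-coding. The start used for the promoter stretch, at 81996922, lies further from Tdo2. Clk2, a kinase of splicing factors, lies 4598 bases upstream of Hcn3.

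**Figure D2:**
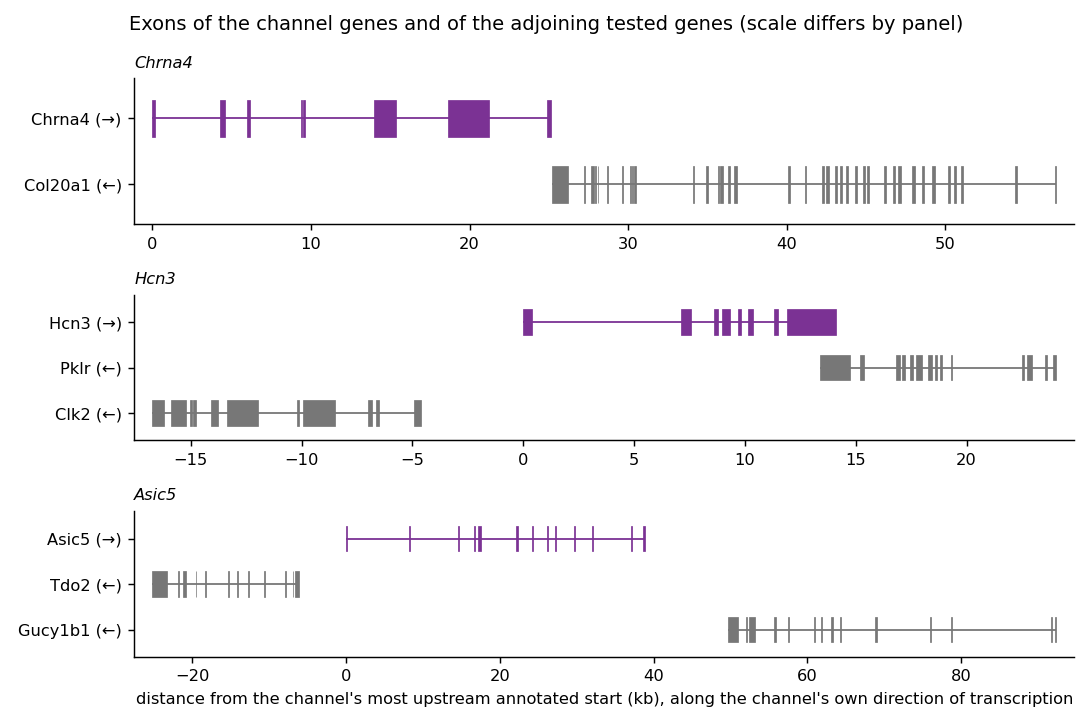
Exons (boxes) and spans (lines) of each channel gene and of the adjoining protein-coding genes that passed the filter on low counts, with the x axis giving the distance in kb from the most upstream annotated start of the channel along its own direction, and arrows giving direction relative to the channel. Only Hcn3 shares exon bases with a neighbour in these maps, 711 bases at its 3' end with Pklr.

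Of the 5 adjoining genes that passed the filter 1 rose and 1 fell, against 18.7% of all tested genes called in either direction. Pklr fell, with 50.3, 39.5 and 45.0 CPM after 16 h, against 361, 281 and 186 CPM after 4 h (-2.62 ± 0.22, edgeR adjusted p = 7.37e-05). Tdo2 rose, with 2825, 3697 and 3818 CPM after 16 h, against 1751, 1988 and 1636 CPM after 4 h (0.94 ± 0.14, edgeR adjusted p = 0.00102). The groups did not overlap for either gene, so each lay on the same side as the channel beside it, Pklr with Hcn3 and Tdo2 with Asic5.

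Col20a1 did not pass, at 1.43 ± 0.84 CPM in the 16 h livers and 2.55 ± 0.60 CPM in the 4 h livers (SD, n = 3 each) with overlapping groups (-0.80 ± 0.39, edgeR adjusted p = 0.18). Clk2 (-0.05 ± 0.12, edgeR adjusted p = 0.80) and Gucy1b1 (-0.21 ± 0.20, edgeR adjusted p = 0.49) did not pass either. Their 95% intervals ran from -0.31 to 0.21 for Clk2 and from -0.64 to 0.22 for Gucy1b1.

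The channels and their adjoining genes did not keep a fixed ratio. For every 100 Pklr counts there were 6.90, 4.43 and 3.75 Hcn3 counts in the 16 h libraries, against 15.8, 19.0 and 22.8 in the 4 h libraries. For every 100 Tdo2 counts there were 0.906, 0.808 and 0.890 Asic5 counts after 16 h, against 0.445, 0.363 and 0.434 after 4 h. Both ratios were apart between the groups, so Hcn3 was lower relative to Pklr and Asic5 higher relative to Tdo2 after the longer fast. As the channels were chosen for their own difference between these groups, the separation of such ratios is only a description. Chrna4 had 8, 11.1 and 5.41 counts for every 100 of Col20a1 after 16 h, against 532, 408 and 227 after 4 h. Those ratios are rough, as Col20a1 had only 50, 9 and 37 counts in the 16 h libraries. In the 4 h libraries Col20a1 had 85, 40 and 37 counts. What part reads from adjoining genes have in the channel counts was not tested.

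**Figure D3:**
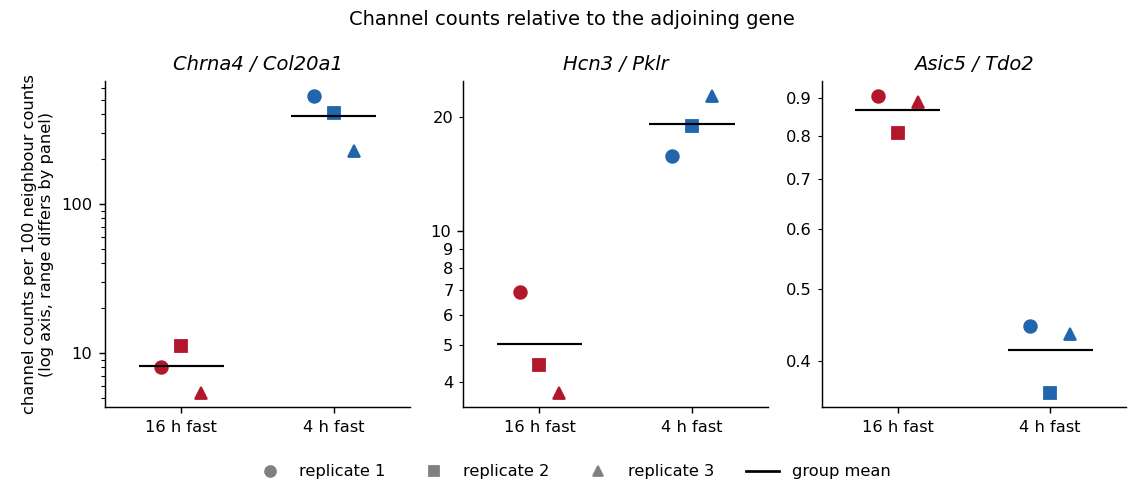
Raw counts of each channel for every 100 counts of the adjoining gene (log axes with a range of their own), 1 point per library and a line at the group mean. The 16 h libraries are all below the 4 h libraries for Chrna4 over Col20a1 and for Hcn3 over Pklr, and all above them for Asic5 over Tdo2.

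Among the other nicotinic receptor subunits, Chrna2 rose while Chrna4 was lower. Chrna2, another neuronal alpha subunit gene on chromosome 14 at 66135039 to 66152948, had 497, 289 and 565 counts in the 16 h libraries, against 191, 105 and 115 in the 4 h libraries. Its level was 22.1, 17.4 and 23.3 CPM after 16 h, against 7.03, 6.77 and 6.01 CPM after 4 h, with the groups apart (1.67 ± 0.15, edgeR adjusted p = 3.97e-05). Per kb of exon, the group means of Chrna4 and Chrna2 were 0.0213 and 5.53 CPM after 16 h and 2.09 and 1.74 CPM after 4 h. No exon base of Chrna2 is shared. Its neighbour Ephx2, a soluble epoxide hydrolase gene 10538 bases away that was looked at after these values were seen, rose by 0.84 ± 0.11 (edgeR adjusted p = 0.000405), and Chrna2 counts for every 100 of Ephx2 were 1.56, 1.21 and 1.51 after 16 h, against 0.823, 0.881 and 0.724 after 4 h. Its nearer neighbour Ptk2b, a tyrosine kinase gene 308 bases away that was also looked at afterwards, was lower in all 16 h libraries, with 39.2, 33.5 and 45.0 CPM, against 49.4, 48.7 and 47.0 CPM in the 4 h libraries, and did not pass (-0.30 ± 0.12, edgeR adjusted p = 0.103).

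Of the 15 other nicotinic subunit genes 3 passed the filter, 1 of these rose and none fell by edgeR, where 9.18% of all tested genes rose and 9.51% fell. At an unadjusted p under 0.05 the counts were 2 higher and 0 lower, and DESeq2 called 1 higher and 0 lower. Chrnb2, the usual partner of Chrna4, had 3.07, 3.62 and 3.29 CPM in the 16 h libraries, against 2.06, 2.19 and 2.66 CPM in the 4 h libraries, and did not pass (0.53 ± 0.21, edgeR adjusted p = 0.108). Other genes share 16.3% of its exon bases. Chrnb1, a subunit of the muscle receptor, did not pass either (0.33 ± 0.40). The list median was 0.53, against -0.028 over all tested genes.

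The remaining 12 subunits were too low to test. Of these, 7 had 0 counts in all libraries, which allows up to 0.0239 CPM over the 125286659 counts of the series. The muscle subunit Chrne had 0, 0 and 2 counts after 16 h, against 8, 7 and 4 after 4 h, and without the filter on low counts it was called lower (edgeR adjusted p = 0.0344). Chrna9 counts came from 1 library in each group, 7 in replicate 1 of the 16 h fast and 9 in replicate 3 of the 4 h fast.

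Genes that fold nicotinic receptors, bind them or handle acetylcholine were mostly low. Of 16 such genes 5 passed the filter, 1 rose, none fell and 4 did not pass by edgeR (median 0.14), beside the 9.18% of tested genes that rose and the 9.51% that fell. There were also 1 higher and 0 lower at an unadjusted p under 0.05 and by DESeq2. The riser was Bche, which encodes the butyrylcholinesterase that liver secretes into plasma, at 124, 122 and 118 CPM after 16 h, against 82.4, 92.7 and 50.6 CPM after 4 h (0.69 ± 0.19, edgeR adjusted p = 0.0283). Its call was lost without replicate 1, 2 or 3 of the 16 h fast (edgeR adjusted p = 0.0738, 0.0781 and 0.0703). Ache, the synaptic acetylcholinesterase, had 10, 10 and 9 counts in the 16 h libraries, against 14, 11 and 8 in the 4 h libraries, and did not pass (-0.22 ± 0.43, edgeR adjusted p = 0.763). Chat, which makes acetylcholine, and its vesicular transporter Slc18a3 had 0 counts in all libraries. The choline transporter Slc44a1 did not pass (-0.28 ± 0.18), except when replicate 3 of the 4 h fast was left out (-0.48, edgeR adjusted p = 0.00227), which gave 1 faller.

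Hcn3 had a higher level per kb than Hcn2 and Hcn4 in both groups. Hcn4, a pacemaker channel of the heart, had 1 count in each group. Hcn2, another channel of brain and heart, had 21, 12 and 20 counts after 16 h, against 12, 11 and 13 after 4 h (0.48 ± 0.37, edgeR adjusted p = 0.39). Its 95% interval ran from -0.33 to 1.29. Per kb of all exon bases, shared ones included, the 16 h group means of Hcn3 and Hcn2 were 0.554 and 0.259 CPM, and the 4 h means 12.2 and 0.191 CPM.

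Of 14 genes of HCN and related cyclic nucleotide-gated channels and HCN partners 4 passed the filter, and none was called in either direction by edgeR or DESeq2 (median 0.34). With 18.7% of all tested genes called by edgeR, a count of 0 among 4 is not set apart from the rest. At an unadjusted p under 0.05, 1 was higher and 0 lower. That was Kctd3, which encodes an Hcn3-binding protein in mouse and was the most abundant of the list per kb. It had 15.6, 14.2 and 16.1 CPM in the 16 h libraries, against 12.9, 12.8 and 12.3 CPM in the 4 h libraries (0.27 ± 0.12, edgeR adjusted p = 0.136).

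Relatives of Asic5 moved both ways. Of 13 genes of acid-sensing channels, epithelial sodium channels and their partners 8 passed the filter, 2 rose, 2 fell and 4 did not pass by edgeR (median 0.17), where 9.18% of all tested genes rose and 9.51% fell. At an unadjusted p under 0.05, 3 were higher and 2 lower. The fallers were Scnn1a and Prss8. Scnn1a, the alpha subunit of the epithelial sodium channel and the most abundant of the list per kb, had 23.9, 24.3 and 25.5 CPM after 16 h, against 45.3, 52.1 and 40.5 CPM after 4 h (-0.90 ± 0.12, edgeR adjusted p = 0.000418). Prss8, a membrane protease that activates that channel, had 3.38, 1.81 and 2.76 CPM after 16 h, against 10.04, 8.51 and 13.7 CPM after 4 h (-2.0 ± 0.24, edgeR adjusted p = 0.000295). Both kept their groups apart, and both passed in each of the 11 alternative fits.

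Asic1, an acid-sensing channel subunit of neurons, rose by 0.61 ± 0.19 and only just passed (edgeR adjusted p = 0.0494), with 3.74, 4.10 and 3.95 CPM in the 16 h livers, against 2.39, 2.71 and 2.66 CPM in the 4 h livers. It kept its call in 1 of 11 alternatives, with an edgeR adjusted p of up to 0.141 without replicate 3 of the 16 h fast. Nedd4l, a ubiquitin ligase that removes the epithelial sodium channel from the membrane, rose by 0.56 ± 0.17 (edgeR adjusted p = 0.038). That call was lost with plain library totals (edgeR adjusted p = 0.0587) and without replicate 2 of the 4 h fast (0.0793). It was also lost without replicate 1, 2 or 3 of the 16 h fast (0.0617, 0.109 and 0.127). When single libraries were left out the list held 0 or 1 risers, with 1 when replicate 1 or 3 of the 4 h fast was absent and 0 otherwise. Asic3 was 1.12 ± 0.44 higher without passing (edgeR adjusted p = 0.097), Asic4 had 1 count in the series and Asic2 none. The beta and gamma subunit genes Scnn1b and Scnn1g had 0 counts after 16 h, and of their 14 counts each after 4 h, 11 and 14 came from replicate 3, the library with lung transcripts.

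**Figure D4:**
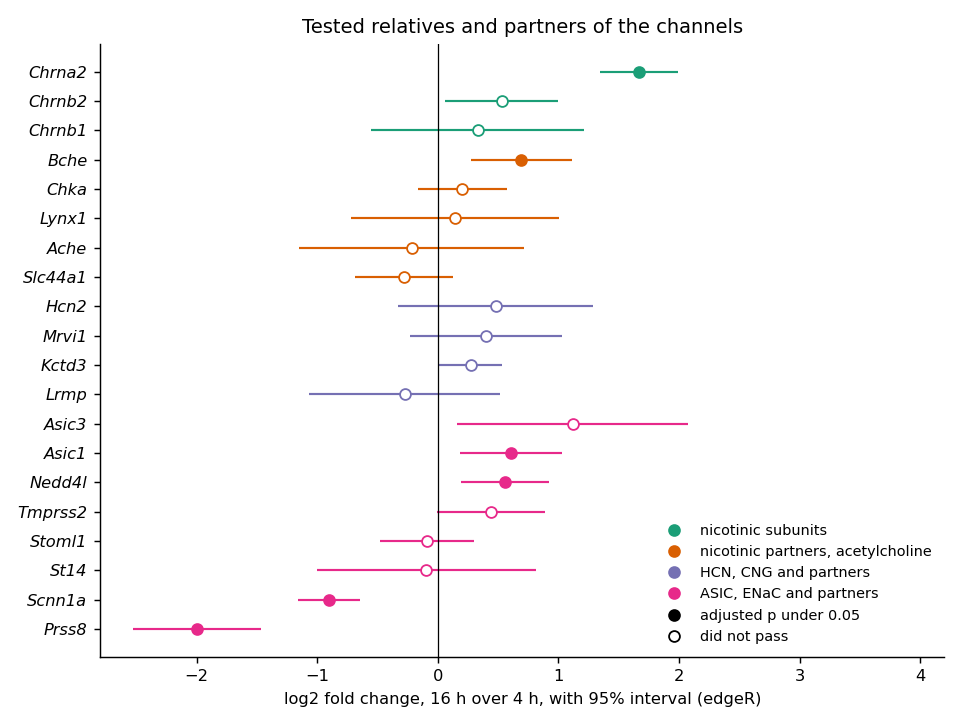
Log2 fold change, 16 h over 4 h, with its 95% interval from edgeR for the 20 tested genes of the lists of nicotinic, HCN and acid-sensing channel relatives and partners, with filled points for those that passed. Chrna2, Bche, Asic1 and Nedd4l lie to the right of 0 with filled points, and Scnn1a and Prss8 to the left.

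Markers of other cell types were looked at beside the channels. The 10 neuron and Schwann cell markers summed to 8.93 to 10.05 CPM after 16 h and 11.3 to 12.7 CPM after 4 h, with Snap25 and Th at 0, and of 3 tested 1 fell, the synaptic vesicle gene Syt1 (-0.55 ± 0.16, edgeR adjusted p = 0.0382). The 10 cholangiocyte markers, led by Spp1, summed to 56.6 to 66.1 CPM after 16 h and 59.8 to 80.01 CPM after 4 h, and none of 7 tested passed by edgeR. The pancreatic acinar list had 6 of 10 markers at 0 and included 1 tested gene, Cela1, which fell (-1.77 ± 0.21, edgeR adjusted p = 0.000337). The sums of that list were 5.599 to 8.44 CPM after 16 h and 17.8 to 28.8 CPM after 4 h. Most of each sum was Cela1 itself, at 5.96, 8.01 and 5.27 CPM after 16 h, against 17.3, 19.6 and 28.3 CPM after 4 h. Of 10 tested markers each, 1 fell among those of Kupffer cells (Timd4) and 1 among those of stellate cells (Col1a1). None fell among those of sinusoidal endothelium. For comparison, 9.18% of all tested genes rose and 9.51% fell, and nothing is read from these counts of called markers. The part of these cell types in the channel values was not tested.

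Profiles over the 6 libraries were compared for likeness. Chrna4 and Hcn3 were both chosen for a difference between these groups, so how near they lie to one another is only a description. Likeness is the root mean square distance between log2 CPM values damped with a prior count of 2, each gene centred on its own mean. It takes in both the group difference and the spread between livers. Chrna4 had few counts after 16 h, so its distances depend on that damping. The gene closest to Chrna4 was Hcn3 (0.70 log2 units), followed by the fatty acid binding protein gene Fabp5 (0.74), the lipogenic regulator Thrsp (1.14), Serpina7 (1.19), which encodes thyroxine-binding globulin, and the carbonic anhydrase Car3 (1.19). Closest to Hcn3 was Fabp5 at 0.22, with 4.67, 2.59 and 2.72 CPM after 16 h, against 93.8, 55.4 and 55.5 CPM after 4 h. Hsd3b5 (0.53), a steroid dehydrogenase gene from a family of near-identical copies, Car3 (0.62), Chrna4 (0.70) and Serpina7 (0.72) came next.

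The genes closest to Asic5 were Treh (0.13), which encodes trehalase, Retsat (0.14), a retinol saturase gene with 18.4% of its exon bases shared, Mat1a (0.14), the S-adenosylmethionine synthetase of liver, the sugar transporter gene Slc45a3 (0.18) and Orm3 (0.22), an orosomucoid gene from a family of near-identical copies. Treh was at 5.74, 6.87 and 8.65 CPM after 16 h, against 1.91, 1.55 and 1.98 CPM after 4 h. Its 16 h libraries stood in the same order as those of Asic5, but its 4 h libraries did not. The order of the libraries enters the distance by which Treh was picked, so nothing is read from it. All these distances rest on 6 libraries and include the difference between the fasts.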

How the data were processed

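The deposited values are whole-number read counts per Ensembl gene, 1 table per library, not normalised by the authors. Reads were trimmed with Trimmomatic, aligned to GRCm38 (mm10) with STAR and counted with HTSeq, per the submitters' processing notes. Neither versions, annotation release nor strand setting is given there. The 5 summary lines of each table, which hold reads of no gene, were set aside before scaling and testing. Reads on no counted feature were 6.44% to 7.14% of a library, summary lines included, and ambiguous reads 5.78% to 6.59%.

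Symbols, positions and exon overlap on either strand came from GENCODE M21, which held 99.57% of the identifiers. Genes kept by filterByExpr (13812, with 99.88% of counts) were tested in R 4.3.3 by edgeR 4.0.16, using TMM scaling, a robust quasi-likelihood fit and Benjamini-Hochberg adjustment over all of them at 0.05. SE and 95% intervals came from that fit. The biological coefficient of variation was 14.3%. The fit was tested on simulated data. DESeq2 1.42.0, other scalings, no filter, a replicate block and leaving out each library were alternatives. Libraries of a group differed by more than counting noise, with a chi-square per degree of freedom of 17.3 to 68.5.

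Members, lists and the rule for named genes were chosen with earlier results of these data known. Named are the channels, their adjoining genes, up to 4 called members and the most abundant member of each list, the 5 closest profiles, and for other ion channels the 5 largest rises and falls at a mean of at least 1 CPM. Other list genes with values in the text, such as Chrnb2, Chrne, Ache, Slc44a1, Hcn2 and Asic3, fall outside that rule and were chosen after their values were seen.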

Additional observations from a re-analysis of the deposited data

How the results depend on the processing

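The log2 fold changes of the channels kept their direction in all alternatives run. Without single libraries they ran from -7.05 to -5.98 for Chrna4, from -4.88 to -4.24 for Hcn3 and from 1.91 to 2.12 for Asic5. Genes called numbered 1268 higher and 1313 lower, and without single libraries 671 to 1594 higher and 696 to 1393 lower. Leaving out replicate 1, 2 or 3 of the 16 h fast left 818, 681 and 671 higher and 823, 715 and 696 lower. Whether the replicate numbers of the titles pair the libraries was not settled. Deviations of same-numbered libraries correlated weakly, at 0.088, 0.093 and 0.045, and 1 of 6 libraries correlated best with another number. With a replicate block 1352 genes were higher and 1396 lower, and the channels stood at -6.47, -4.47 and 2 on the log2 scale. Risers among relatives of Asic5 were 1 with the block, 0 with plain library totals, 1 with DESeq2 and 1 without the filter on low counts, and 0 to 1 without single libraries. Without the filter its fallers were 4, as Scnn1b and Scnn1g were added, and 1 other nicotinic subunit fell. Acetylcholine genes had 0 to 1 risers and 0 to 1 fallers without single libraries. Other ion channels had 9 risers without the filter, and 2 to 9 risers and 1 to 5 fallers without single libraries. The change of Clk2, which did not pass, ran from -0.11 to 0.0599 and turned positive (0.0599) without replicate 2 of the 4 h fast. Counts of 7 in the 16 h group limit Chrna4. The cause of these shifts was not tested.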

Other observations

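Ion channels of other families moved both ways. Of 271 genes in other channel families 72 passed the filter, 5 rose, 5 fell and 62 did not pass by edgeR, so 13.9% were called, against 18.7% of all tested genes (median 0.058 against -0.028). The steepest rise was that of Kcnn1, a calcium-activated potassium channel, with 6.58, 8.797 and 6.01 CPM after 16 h, against 2.94, 3.61 and 2.61 CPM after 4 h (1.22 ± 0.21, edgeR adjusted p = 0.00232). Trpm4, a calcium-activated cation channel, rose by 1.07 ± 0.25, Pkd2l2 by 0.79 ± 0.21, Clca3a1, from a family of similar copies, by 0.69 ± 0.21 and the sperm channel gene Catsper2 by 0.67 ± 0.18. The steepest fall was that of Gria3, a glutamate receptor subunit, with 1.60, 1.14 and 1.48 CPM after 16 h, against 5.63, 4.00 and 3.08 CPM after 4 h (-1.58 ± 0.27, edgeR adjusted p = 0.00248). Kcna2, a voltage-gated potassium channel, fell by 1.27, Ano8 by 0.64, the ATP-gated channel gene P2rx4 by 0.47 and the chloride channel gene Clcn2 by 0.39.

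Kcnn1 and Gria3 passed in each of 11 alternative fits. The other 8 lost their call in 2 to 6 of them. Without replicate 1, 2 or 3 of the 16 h fast the risers numbered 3, 3 and 2 and the fallers 1, 2 and 3, and without replicate 3 of the 4 h fast 9 genes rose, while 2 fell without replicate 2 of the 4 h fast. The most abundant per kb was Tmem63b, a mechanically gated cation channel, which did not pass (0.21 ± 0.10, edgeR adjusted p = 0.145) except without replicate 3 of the 4 h fast (0.039).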
